A study of Mus musculus with 35 samples.

Results

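Whole lungs of untreated juvenile mice labelled day 7 were compared with whole lungs of untreated mice labelled day 2. The comparison holds 12 of the 35 libraries of the series, chosen by their labels for agent and time point alone. The 6 libraries of day 7 came from 3 KO and 3 control lungs, and the 6 of day 2 likewise from 3 KO and 3 control lungs. Both genotypes carry a floxed Rora gene: controls (C) are RORaf/f, and KO mice are RORaf/fIl7riCre, whose Cre recombinase is placed at Il7r and acts in cells that express that gene or descend from such cells. No Cre is named in the control genotype. None of these 12 lungs received an agent, while the rest of the series includes lungs after naphthalene, a compound that injures the airway epithelium of mice. The series design gives an age of 14 days without a separate age for each day label, so how old the lungs of days 7 and 2 were is not given in the sources used here. RNA was extracted with Trizol from an aliquot of homogenised lung and made into libraries with a Watchmaker Genomics mRNA kit. The labels do not state that every library is a separate animal, so the p-values measure the spread between these libraries.

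A mouse lung forms most of its alveoli in the first weeks after birth. Myofibroblasts, a transient population of contractile cells that lay down elastin and collagen, raise the septa that divide the early air sacs, and they become scarce once this phase ends. Over the same weeks the airway epithelium acquires its detoxifying enzymes, club cells fill with secretory proteins, and circulating blood and resident immune cells change in number. In RNA from a whole organ, fewer cells of a type and less RNA per cell cannot be told apart.

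The 12 libraries held 14.5 to 21.1 M counts at day 7, against 10.7 to 20 M counts at day 2, and 1 read was worth 0.0545 to 0.0710 CPM (counts scaled by library size) at day 7 and 0.0472 to 0.0850 CPM at day 2. The library names carry a letter whose meaning the labels do not give. All 6 libraries of day 7 carry p, whereas at day 2 controls 1 and 2 and KO 2 and 3 carry k, and control 3 and KO 1 carry n. No library of day 7 shares its letter with one of day 2, so day and letter cannot be told apart, and values at day 2 are given by letter for some genes only, so a value given without letters can cover libraries that differed by letter. The first principal component (42.4% of the variance) placed the 2 letter n libraries at 27 and 21.2, the day 7 libraries between -25.2 and 12.8 and the letter k libraries between -10.5 and 8.57. The second component (28.3%) placed the day 7 libraries between -16 and -2.79 and the day 2 libraries between -0.0236 and 21. The ribosomal transcript Rn18s-rs5 took 1.32% to 8.12% of counts at day 7, with the highest share in KO 1, against 0.946% to 1.76% at day 2. Xist, a transcript of female cells, was above 100 CPM in 2 of 6 libraries of day 7 and in 3 of 6 of day 2 (3 of 4 with letter k and 0 of 2 with letter n), so the sexes were mixed at both days. Rora lay at 42.1 to 58.6 CPM at day 7 and at 31.2 to 60.6 CPM at day 2. Il7r lay at 3.25 to 4.88 CPM in KO lungs and 7.89 to 8.92 CPM in control lungs of day 7, whereas at day 2 the genotypes overlapped, with 4.51, 5.21 and 8.17 CPM in KO lungs and 1.69, 2.46 and 10.6 CPM in control lungs. Markers of the labelled tissue were present at both days: 15 transcripts of type 2 pneumocytes summed to 19915 to 38110.0 CPM at day 7, against 12032 to 28471 CPM at day 2.

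In the day 7 lungs 13 of 17 tested red cell genes, 13 of 23 cholesterol synthesis genes, 13 of 35 P450 and conjugation genes, 7 of 18 club cell genes and the clock genes Nr1d1 and Dbp rose, against 4.11% of all tested genes. Of B cell genes 9 of 16 fell, as did 6 of 17 genes of alveolar myofibroblasts and the clock gene Bmal1, against 4.64% of all tested genes. On these lists 1 P450 and conjugation gene fell, 1 myofibroblast gene rose, and the other members did not pass the test. Genes of the mitotic cell cycle, ciliated cells, T cells and general capillary endothelium gave no call in either direction over the 12 libraries. Against the day 2 libraries of a single letter each of these lists had at least 1 call. With genotype as a covariate, edgeR's quasi-likelihood test called 1636 of 18691 tested genes at a Benjamini-Hochberg adjusted p of 0.05, which is 8.75% of all genes tested. Of these 768 rose (4.11%) and 868 fell (4.64%). The change was at least 2-fold in 354 of them, 1.89% of all genes tested, and the median log2 change over all tested genes was 0.02. The 6 values of day 7 and the 6 of day 2 did not overlap in 736 genes, 3.94% of those tested. The number of calls leaned on single libraries: it was 559 without day 7 control 1, 569 without day 2 control 1, 653 without day 7 KO 3, 862 without day 7 control 3, 965 without day 7 control 2 and 1073 without day 2 KO 2. A total of 480 genes (210 higher and 270 lower) were called in each of the 12 fits that left out 1 library. Levels are CPM scaled by TMM factors, and where 3 values are given for a day they are the lowest, the median and the highest of its 6 libraries.

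**Figure D1:**
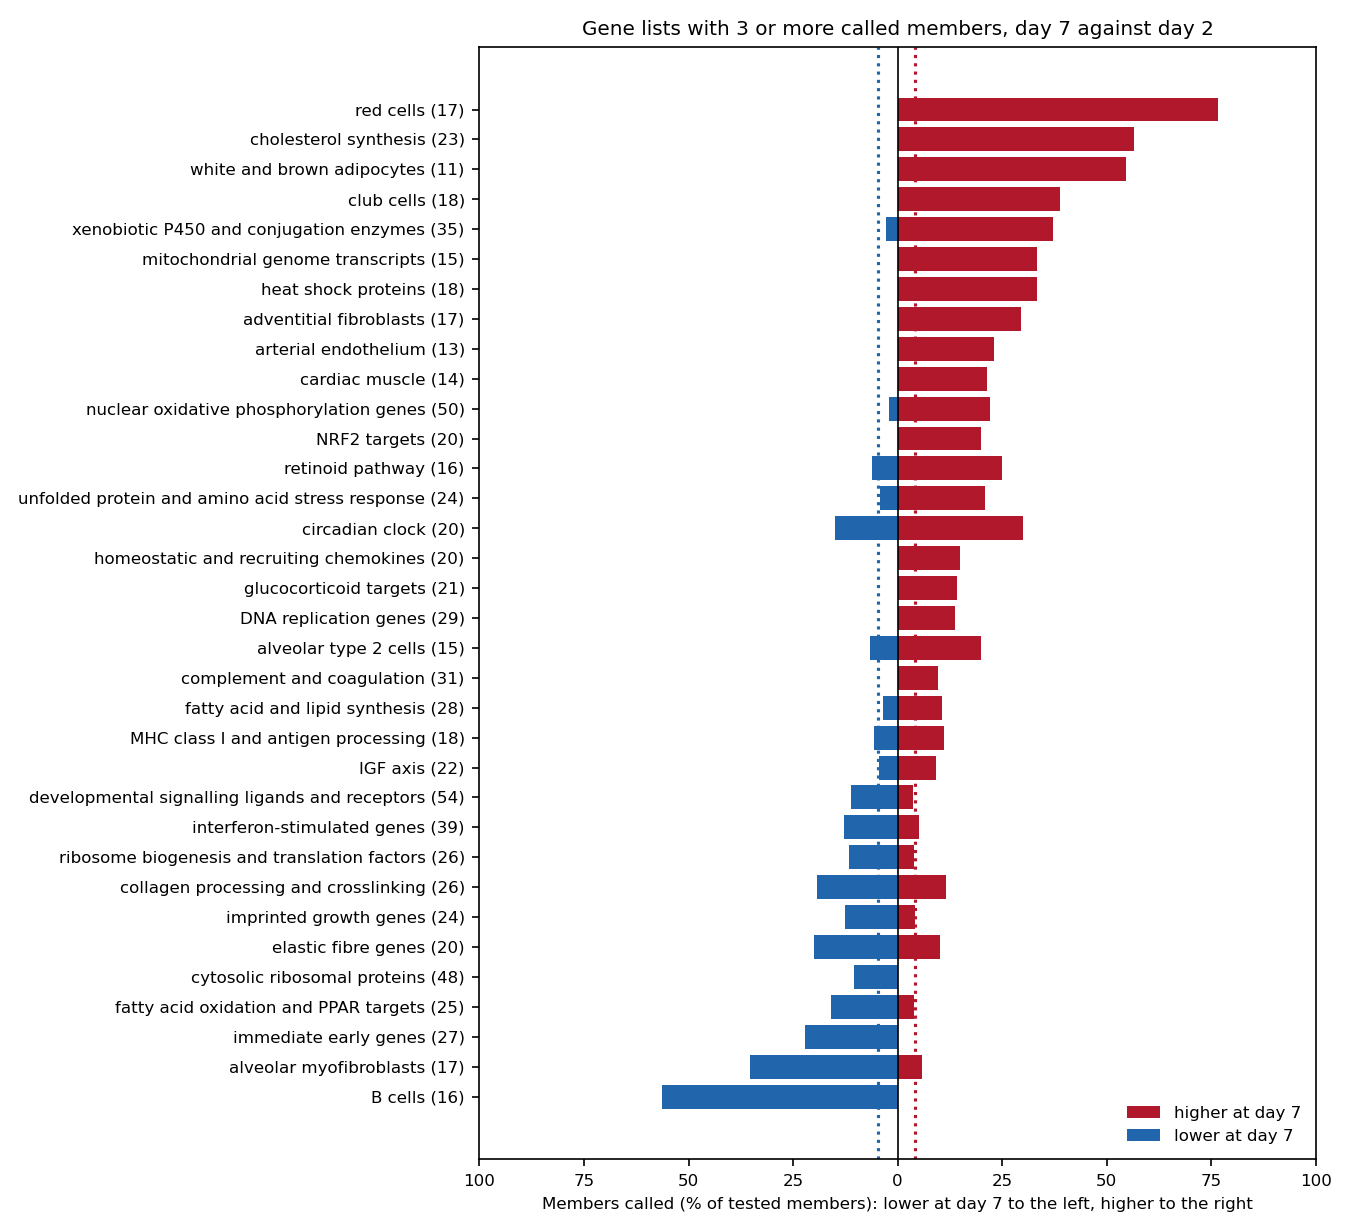
Percent of the tested members of each gene list that were called higher (bars to the right) or lower (bars to the left) at day 7 relative to day 2 in untreated lungs, for lists with at least 3 called members. The number of tested members stands in parentheses, the dotted lines mark the shares over all tested genes (4.11% higher and 4.64% lower), and red cells, cholesterol synthesis and adipocytes reach furthest to the right while B cells and alveolar myofibroblasts reach furthest to the left.

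Fitted within each genotype, the day difference was called in 3 genes in KO lungs (0.0161% of tested genes, 0.0107% higher and 0.00535% lower) and in 315 genes in control lungs (1.69%; 123 higher and 192 lower), with 1785 (9.55%) and 3870 (20.7%) genes at an unadjusted p under 0.05. The genes called in KO lungs included Nr1d1, with a log2 change of 2.22 (adjusted p = 0.0247), and Duxbl1, with -2.66 (adjusted p = 0.0176). DESeq2 called 109 genes in KO lungs and 1333 in control lungs. Of the 315 genes called in control lungs, 311 (98.7%) had the same sign in KO lungs, where 220 (69.8%) also had an unadjusted p under 0.05, while over all tested genes 74.1% had the same sign in both genotypes. The test of the difference itself, the interaction of genotype and day, called 0 genes (0% of those tested) in edgeR and 0 in DESeq2, with 352 genes (1.88%) at an unadjusted p under 0.05 in edgeR. The number of calls in each genotype does not by itself show that the genotypes differed, and the values below are over both genotypes unless stated.

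**Figure D2:**
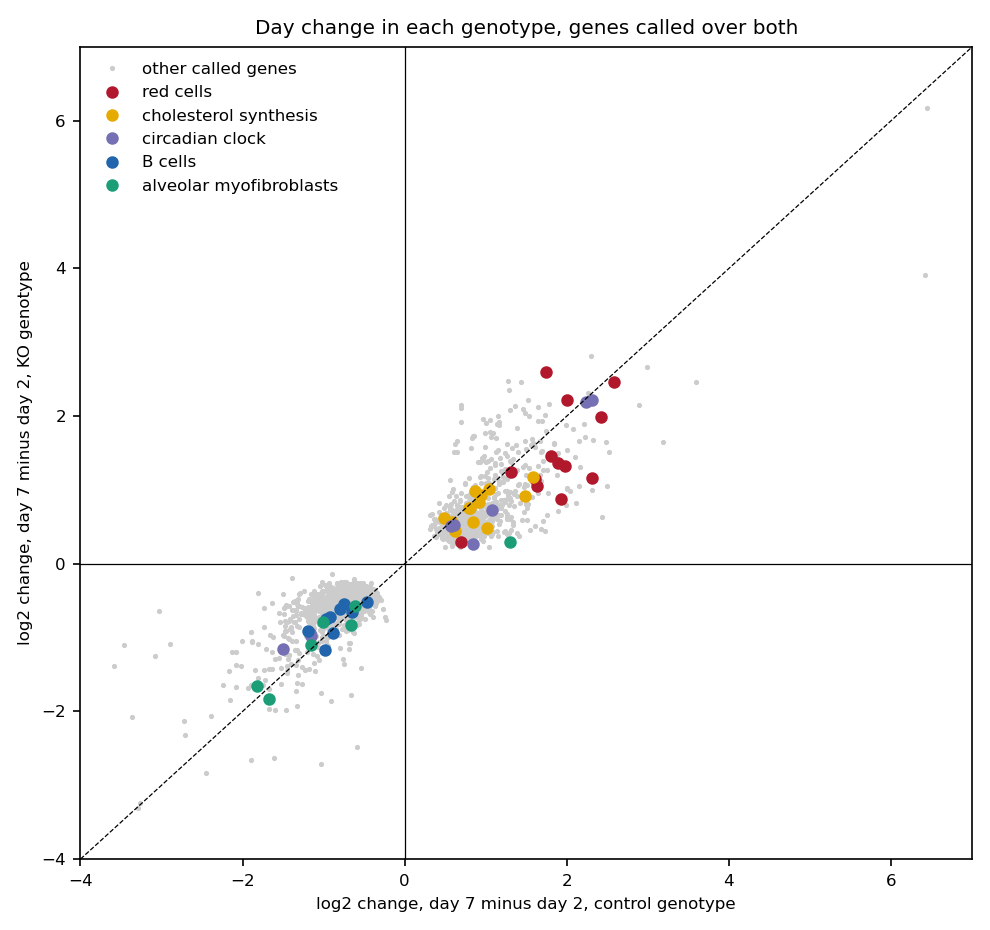
Log2 change at day 7 relative to day 2 in KO lungs (vertical axis) against that in control lungs (horizontal axis) for the genes called over both genotypes, 3 libraries per genotype and day, with members of selected lists in colour. Most points lie in the quadrants of equal sign, and the dashed line marks equal change; the interaction called 0 genes.

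The largest increase among genes that averaged 5 CPM or more on either day, without overlap between the days, was that of Cyp1a1, a P450 enzyme best known as the target gene of the aryl hydrocarbon receptor. Cyp1a1 had 0.781, 12.8 and 19.4 CPM at day 7, against 0, 0.0889 and 0.258 CPM at day 2. Its transcript was at the level of a few reads per library in all 6 lungs of day 2 and present in all 6 of day 7, and the log2 change, which rests on very few reads at day 2, was 6.37 ± 0.63 (SE, adjusted p = 0.000109). The secreted airway protein Bpifa1 followed, with 4.29, 18.1 and 39.3 CPM at day 7, against 0.752, 2.5 and 3.83 CPM at day 2, a log2 change of 3.05 ± 0.48 (adjusted p = 0.00312). Olfm2, an olfactomedin family protein, rose by 2.84 on the log2 scale, and the membrane receptor gene Paqr9 by 2.04. Car3, a carbonic anhydrase abundant in fat and muscle, rose by 2.00, Chil3, a chitinase-like protein of alveolar macrophages, by 1.70, Faim2, an inhibitor of Fas-mediated cell death, by 1.66, and Ms4a4d by 1.63. The remaining 7 of the 15 largest increases were Hbb-bt, Hbb-bs, Slc4a1, Nr1d1, Dbp, Cyp2b10 and Fam107a, which are described with their groups. These 15 genes were called in all 12 fits with 1 library left out.

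The largest decrease by the same rule was that of Duxbl1, a homeobox gene, with 0.781, 1.27 and 2.51 CPM at day 7, against 5.28, 6.84 and 8.06 CPM at day 2, and a log2 change of -2.26 ± 0.25 (SE, adjusted p = 0.000197). Duxbl1 has near-identical copies in the genome, so how reads were split among them is uncertain. Tgfbi, a matrix protein made by myofibroblasts and macrophages, fell by 1.74 on the log2 scale, and P4ha3, a prolyl hydroxylase that modifies collagen chains, and Cyp2e1, a P450 enzyme, each fell by 1.47. Enpp1, which makes pyrophosphate outside cells, fell by 1.41, the neurotrophin receptor gene Ntrk3 and the stress-induced kinase gene Plk2 by 1.33 each, and Cd72, a B cell co-receptor, by 1.26. Irag2 (-1.22), Ptpn5 (-1.20), Phka2 (-1.19), Mical1 (-1.13), Cdh4 (-1.13), Crocc2 (-1.13) and the clock gene Bmal1 (-1.33) complete the 15 largest decreases. All 15 were called in each of the 12 fits with 1 library left out.

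**Figure D3:**
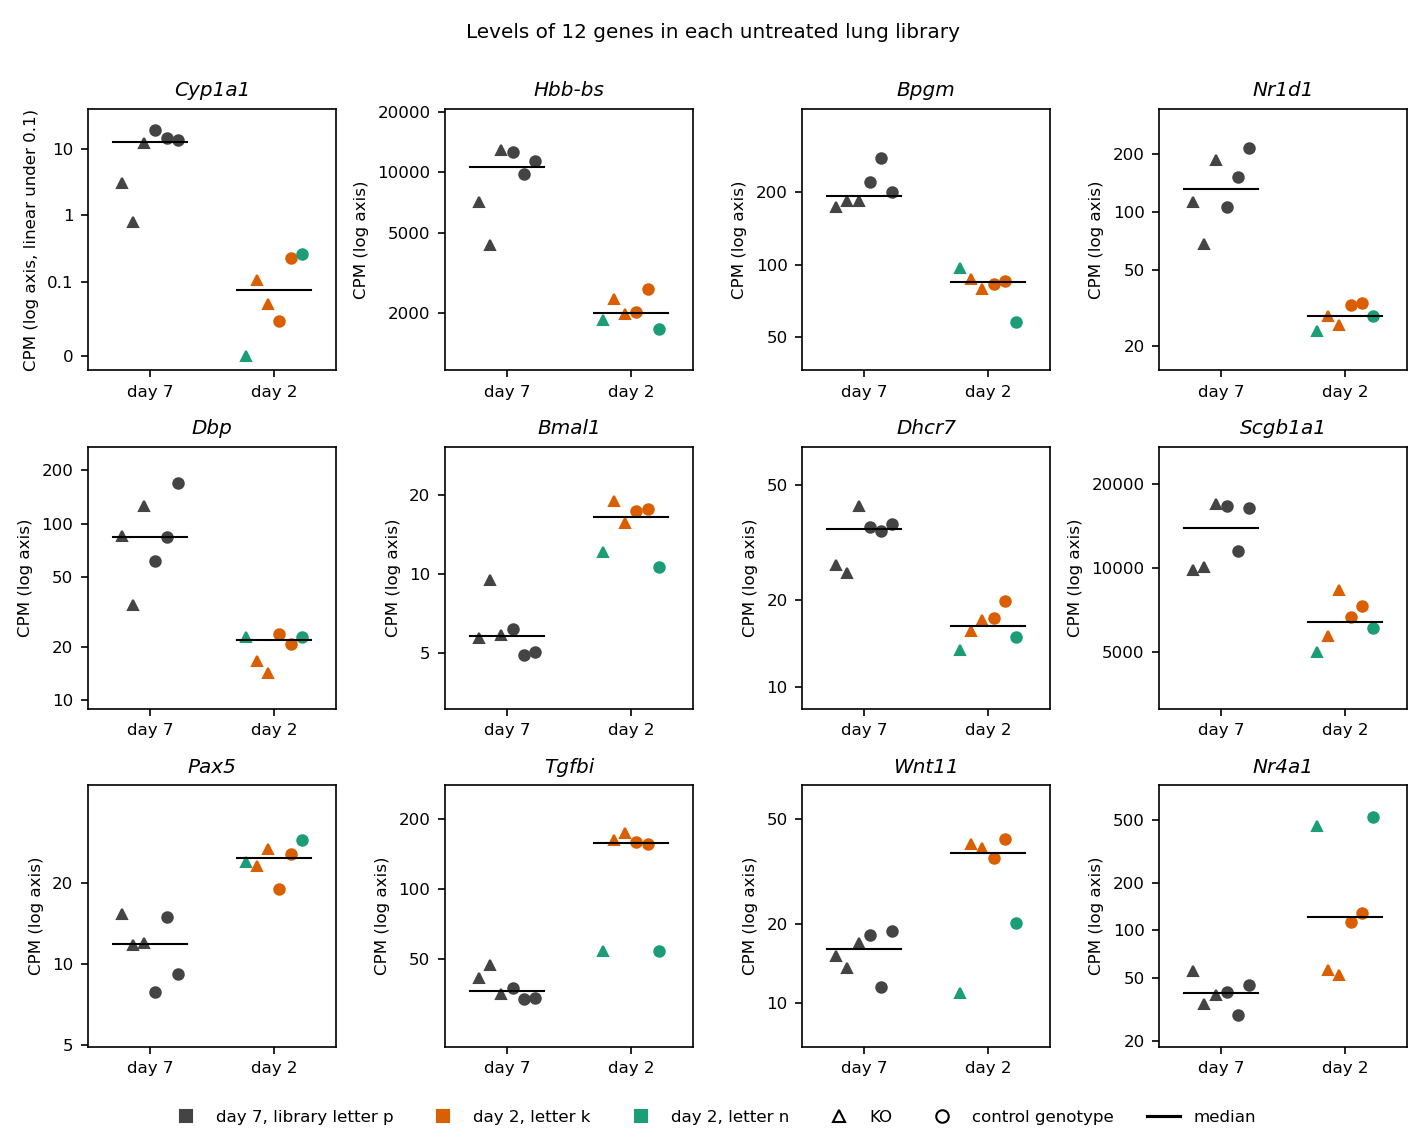
CPM of 12 genes in each of the 12 untreated libraries, on a log axis (for Cyp1a1 linear under 0.1), with day 7 (letter p, grey) left of day 2 (letter k orange, letter n green), triangles for KO and circles for control lungs, and a line at each day's median. Cyp1a1, Hbb-bs, Bpgm, Nr1d1, Dbp and Dhcr7 are higher in every library of day 7 than in any of day 2, whereas for Tgfbi, Wnt11 and Nr4a1 the libraries of day 2 fall apart by letter.

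Most tested transcripts of red cells were higher at day 7. The list holds globins, enzymes of haem synthesis and proteins of the red cell membrane, and 13 of its 17 tested members rose and 0 fell, against 4.11% and 4.64% of all tested genes. Its median log2 change was 1.44, against 0.02 over all genes, and leaving out 1 library left 10 to 13 calls. Hbb-bs, an adult beta-globin, had 4373, 10599.7 and 12956 CPM at day 7, against 1652, 1990.4 and 2639.8 CPM at day 2. Every library of day 7 lay above every library of day 2, and the log2 change was 2.21 ± 0.24 (SE, adjusted p = 0.000174). KO 2 was the lowest library of day 7 both for this gene and in the summed haemoglobin share, which was 0.702% to 2.14% of all counts at day 7 (median 1.90%), against 0.302% to 0.518% at day 2 (median 0.414%). Hbb-bt and Hba-a1, further globins with near-identical copies among which reads may be split, changed by 2.53 ± 0.29 (adjusted p = 0.000199) and 2.11 ± 0.31 (adjusted p = 0.00213) on the log2 scale.

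Members outside the globins moved the same way. Slc4a1, the anion exchanger band 3 of the red cell membrane, had 35.4, 53 and 95.2 CPM at day 7, against 13, 16.3 and 32.3 CPM at day 2, and a log2 change of 1.66 ± 0.21 (adjusted p = 0.0007). Bpgm, which sets the level of the haemoglobin ligand bisphosphoglycerate, had 174, 193 and 279 CPM at day 7, against 57.8, 84.3 and 96.4 CPM at day 2, and changed by 1.34 ± 0.15 (adjusted p = 0.000199). Further called members were Ahsp, the alpha-globin chaperone, Alas2 and Fech of haem synthesis, Epb42 of the membrane skeleton, Tspo2 and Hba-a2, with log2 changes of 0.50 (Fech) to 2.16 (Hba-a2). Rhd (1.12, adjusted p = 0.0589), Tfrc (0.38, adjusted p = 0.198) and Sptb (0.37, adjusted p = 0.227) did not pass the test. Against the letter k libraries alone (Hbb-bs 1971 to 2639.8 CPM) the change of Hbb-bs was 2.05 (adjusted p = 7.93e-05), and against the letter n libraries (Hbb-bs 1652 and 1844 CPM) it was 2.44 (adjusted p = 0.00491); both use the same day 7 libraries. Whether blood left in the organ differed between the days was not tested. The haemoglobin share was higher at day 7 alongside every difference reported here, and its part in them was not tested.

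Among platelet and megakaryocyte genes the few calls were lower. Of 13 tested members, 2 fell and 0 rose, with a list median of -0.36 and 0 to 5 calls when 1 library was left out. Tubb1, the beta-tubulin of platelets, had 0.816, 1.39 and 1.91 CPM at day 7, against 1.06, 3.44 and 4.85 CPM at day 2, and a log2 change of -1.28 ± 0.34 (adjusted p = 0.0324), called in 6 of the 12 fits with 1 library left out (highest adjusted p 0.0921). Itgb3, the integrin chain of the platelet fibrinogen receptor, changed by -0.66 ± 0.15 (adjusted p = 0.0161) and was called in 11 of 12.

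Genes of the circadian clock differed in both directions. In this loop BMAL1, with CLOCK or NPAS2, activates genes through E-boxes, among them Nr1d1, Dbp, Tef and Bhlhe41, and the product of Nr1d1 represses Bmal1 and Npas2 through elements also bound by ROR proteins such as the product of Rora. Of 20 tested members 6 rose and 3 fell, against 4.11% and 4.64% of all tested genes, with a list median of 0.01 and 6 to 11 calls when 1 library was left out. The members that rose were Nr1d1, Dbp, Bhlhe41, Tef, Hlf and Bhlhe40, and those that fell were Bmal1, Npas2 and Nfil3. The sources used here give no hour of collection.

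Nr1d1, the repressor REV-ERB alpha, had 68.1, 131 and 214 CPM at day 7, against 23.9, 28.7 and 33.7 CPM at day 2, with a log2 change of 2.26 ± 0.21 (SE, adjusted p = 0.000104). Dbp, an activator that the clock drives, had 34.4, 84.2 and 169.9 CPM at day 7, against 14.2, 21.7 and 23.5 CPM at day 2, and changed by 2.21 ± 0.28 (adjusted p = 0.000617). Both genes were higher in every library of day 7 than in any of day 2. Bhlhe41, a repressor of E-box genes, had 11.2, 16.8 and 19.5 CPM at day 7, against 7.25, 7.77 and 10.2 CPM at day 2, and changed by 0.91 ± 0.16 (adjusted p = 0.00564). Tef, a relative of Dbp, changed by 0.57 ± 0.15 (adjusted p = 0.0325) but was called in 4 of the 12 fits with 1 library left out (highest adjusted p 0.0913). Bmal1 had 4.89, 5.76 and 9.43 CPM at day 7, against 10.6, 16.4 and 19 CPM at day 2, and its log2 change was -1.33 ± 0.19 (adjusted p = 0.00162). Nfil3, which opposes Dbp at shared sites, changed by -1.05 ± 0.19 (adjusted p = 0.00631), and Npas2, the partner of BMAL1, by -1.07 ± 0.29 (adjusted p = 0.0339). Per1 (0.03, adjusted p = 0.935), one of the most abundant members by CPM, and Clock, Per2, Per3, Cry1 and Nr1d2 did not pass the test.

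At day 2 the libraries of letters k and n did not overlap for Bmal1 and Npas2, whereas they overlapped for Dbp and Nr1d1. Dbp lay at 14.2 to 23.5 CPM in the letter k libraries and at 22.8 and 22.8 CPM in the letter n libraries, with log2 changes of 2.27 (adjusted p = 0.00382) against k and 2.02 (adjusted p = 0.0372) against n. Nr1d1 lay at 25.7 to 33.7 CPM (k) and 23.9 and 28.8 CPM (n), with 2.16 (adjusted p = 5.51e-05) and 2.40 (adjusted p = 0.00456). Bmal1 lay at 15.6 to 19 CPM (k) and 10.6 and 12.1 CPM (n), with -1.54 (adjusted p = 5.68e-05) and -0.89 (adjusted p = 0.0292). Npas2 lay at 8.11 to 9.72 CPM (k) and 3.49 and 4.54 CPM (n), with -1.37 (adjusted p = 0.00302) and -0.26 (adjusted p = 0.671), and it was called in 3 of the 12 fits with 1 library left out (highest adjusted p 0.0901). Both comparisons share the 6 libraries of day 7.

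Promoters are shown for 3 clock genes that changed, since the loop acts through short sequence elements near their starts. These 3 are picked examples, each with a match, and Nr1d1 and Dbp, which changed more, are not shown. Each window runs from 250 bases before to 50 after the start, from RefSeq on build GRCm38.p6, and is written on the gene's strand. Capitals mark CACGTG, the E-box bound by BMAL1 and its partners, in Tef (chr15:81802423-81802722, plus strand) and Bhlhe41 (chr6:145865371-145865670, minus strand), and AGGTCA, the core of the element bound by ROR and REV-ERB proteins, in Bmal1 (chr7:113207261-113207560, plus strand, listed as Arntl).
Tef: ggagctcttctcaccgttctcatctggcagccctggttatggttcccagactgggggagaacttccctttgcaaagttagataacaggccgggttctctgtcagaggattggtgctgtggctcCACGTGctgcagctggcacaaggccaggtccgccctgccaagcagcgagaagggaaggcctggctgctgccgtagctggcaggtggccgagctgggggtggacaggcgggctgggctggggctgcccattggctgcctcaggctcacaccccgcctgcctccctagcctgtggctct
Bhlhe41: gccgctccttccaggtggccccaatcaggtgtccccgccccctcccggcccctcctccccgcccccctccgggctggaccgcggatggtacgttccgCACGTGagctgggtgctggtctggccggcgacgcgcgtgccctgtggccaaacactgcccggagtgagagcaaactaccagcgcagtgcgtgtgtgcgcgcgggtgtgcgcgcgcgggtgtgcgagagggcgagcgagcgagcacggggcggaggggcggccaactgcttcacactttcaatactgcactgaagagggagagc
Bmal1: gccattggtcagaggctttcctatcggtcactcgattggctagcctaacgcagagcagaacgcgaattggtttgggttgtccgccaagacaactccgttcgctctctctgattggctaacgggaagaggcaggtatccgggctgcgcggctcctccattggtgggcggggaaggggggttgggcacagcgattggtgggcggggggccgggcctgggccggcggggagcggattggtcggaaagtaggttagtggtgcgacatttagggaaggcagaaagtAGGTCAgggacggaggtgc
Tef and Bmal1 have 2 windows each in the table, and the one shown holds the match. Both strands were searched, and neither of these motifs is contained in another that was searched. CACGTG occurred in 7.15% and AGGTCA in 16.3% of all 32851 windows, and each occurred in 5 of the 17 clock members that have a window. The first shares count single windows, whereas a member counted if any of its windows matched, so the units are unlike. A match describes these letters only and does not show that a factor binds there.

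Many enzymes that oxidise and conjugate foreign compounds were higher at day 7. Of 35 tested members 13 rose and 1, Cyp2e1, fell, against 4.11% and 4.64% of all tested genes. The list median was 0.54, and 10 to 16 members were called when 1 library was left out. Many of these enzymes are made by club cells, the secretory cells of the bronchioles, in which P450 enzymes turn naphthalene into its toxic metabolites.

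Among the oxidising enzymes, Cyp1a1 led with the values given above, and its change was 6.45 (adjusted p = 0.00192) against letter k and 6.19 (adjusted p = 0.0226) against letter n. Other genes known to respond to the same receptor were looked up after that value had been seen: the log2 difference was 0.60 ± 0.20 (adjusted p = 0.0753) for Cyp1b1, 0.63 ± 0.19 (adjusted p = 0.0531) for Nqo1, 0.12 ± 0.16 (adjusted p = 0.653) for Tiparp and -0.28 ± 0.23 (adjusted p = 0.446) for the receptor gene Ahr itself. None of these 4 passed the test. Cyp2b10, a P450 induced through the receptor CAR, had 52.3, 86.7 and 110.1 CPM at day 7, against 18.7, 23 and 37.8 CPM at day 2, with a log2 change of 1.77 ± 0.19 (adjusted p = 0.000197). Cyp2a5 and Cyp4b1 also rose, by 1.49 and 0.54. Cyp2f2, the P450 that activates naphthalene in mouse airways and one of the 2 most abundant members by CPM, had a log2 difference of 0.65 ± 0.21 (adjusted p = 0.0584) and did not pass the test. Cyp2e1 was lower, with 5.98, 7.06 and 9.04 CPM at day 7, against 9.5, 21.6 and 28.7 CPM at day 2, and a log2 change of -1.47 ± 0.26 (adjusted p = 0.00503); at day 2 it lay at 21.6 to 28.7 CPM with letter k and at 9.5 and 10.4 CPM with letter n.

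Among the conjugating enzymes, Gstm1, a glutathione transferase, had 187, 305 and 449 CPM at day 7, against 145, 184 and 207 CPM at day 2, and changed by 0.81 ± 0.18 (adjusted p = 0.0127). The microsomal transferase gene Mgst1 changed by 0.76 ± 0.13 (adjusted p = 0.00430) and the epoxide hydrolase gene Ephx1 by 0.62 ± 0.13 (adjusted p = 0.0126). Gstp1, Gstm2, Gsto1, Gsta3 and the sulfotransferase gene Sult1d1 also rose, with changes of 0.66 (Gstp1) to 1.30 (Sult1d1). Targets of NRF2, the factor that responds to oxidants and electrophiles, gave 4 calls higher and 0 lower of 20 tested, with a median of 0.27. Of these Gstm1 and Ephx1 are shared with the list above, Gpx2, a glutathione peroxidase of epithelia, changed by 1.24 ± 0.23 (adjusted p = 0.00602), and Osgin1 by 1.04 ± 0.26 (adjusted p = 0.0245).

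The promoter of Cyp1a1 is shown because this gene had the largest change (RefSeq window, GRCm38.p6, chr9:57697363-57697662, plus strand). Capitals mark GCGTG, the core of the element bound by the aryl hydrocarbon receptor, and TATAAA.
Cyp1a1: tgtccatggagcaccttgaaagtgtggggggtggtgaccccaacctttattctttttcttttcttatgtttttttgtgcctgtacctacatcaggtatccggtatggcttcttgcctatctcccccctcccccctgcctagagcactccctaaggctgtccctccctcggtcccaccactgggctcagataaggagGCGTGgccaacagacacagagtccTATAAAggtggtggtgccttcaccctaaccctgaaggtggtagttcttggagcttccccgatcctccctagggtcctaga
GCGTG occurred in 32.4% and TATAAA in 13.6% of all windows, and among the 29 list members with a window each occurred in 10. Here too a member counted if any of its windows matched, unlike the shares over single windows. Both strands were searched, and the match is a description of the letters only.

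Club cell genes rose in 7 of 18 tested members, with 0 lower, a median of 0.49 and 3 to 8 calls when 1 library was left out. Scgb1a1, the secretoglobin that defines these cells, had 9816, 13915 and 16962 CPM at day 7, against 4998, 6383 and 8345 CPM at day 2, and its log2 change was 1.05 ± 0.19 (adjusted p = 0.00602). Gabrp, a GABA receptor subunit of airway epithelium, was called in all 12 fits with 1 library left out, whereas Cbr2, a carbonyl reductase (0.63 ± 0.17, adjusted p = 0.0334), was called in 6 and Aldh1a1, which makes retinoic acid (0.72 ± 0.18, adjusted p = 0.0237), in 7 of 12. Por, the electron donor of P450 enzymes, and Gsta3 also rose. The summed level of the list ran 15160.4 to 24892 CPM at day 7, against 9878 to 13316 CPM at day 2.

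Calls in the other epithelial lists ranged from 0% of ciliated cell genes to 26.7% of type 2 cell genes, against 8.75% of all tested genes. Of 13 goblet and mucous cell genes, 2 rose (15.4%, against 4.11% of all tested genes): Bpifa1 and Scgb3a1, a secretoglobin of the larger airways, which changed by 1.37 ± 0.39 (adjusted p = 0.0419) and was called in 4 of the 12 fits with 1 library left out. Ciliated cells gave 0 calls among 25 members, with a median of -0.03. Against letter k, 2 ciliated genes were called higher and 1 lower (median 0.03), and against letter n, 0 higher and 5 lower (median -0.43). Over all genes 4.22% and 5.04% were called higher in these fits, and 6.21% and 7.04% lower. Of 15 genes of surfactant-producing type 2 cells, 3 rose and 1 fell, with a median of 0.41. S100g, a calcium-binding protein, changed by 0.91 ± 0.16 (adjusted p = 0.00490), Sftpa1, surfactant protein A, by 0.70 ± 0.18 (adjusted p = 0.0288) and Cxcl15, a lung chemokine, by 0.67 ± 0.16 (adjusted p = 0.0214), while Abca3, the lipid transporter of surfactant granules, changed by -0.96 ± 0.21 (adjusted p = 0.0151). Sftpa1 and Cxcl15 were each called in 7 of the 12 fits with 1 library left out, Abca3 and S100g in all. Against letter k, 3 type 2 cell genes were called higher and 1 lower (median 0.32), and against letter n, 4 higher and 0 lower (median 0.97). Abca3 was therefore not called lower against letter n. The summed level of the list at day 2 was 20805 to 28471 CPM with letter k and 12032 to 19015 CPM with letter n. Sftpc, the most abundant member by CPM, had a log2 difference of 0.41 ± 0.24 (adjusted p = 0.287) and did not pass. Type 1 cells, which form the gas exchange surface, gave 1 call among 18, the homeodomain gene Hopx (0.76 ± 0.13, adjusted p = 0.00503), with a list median of 0.30.

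Many genes of cholesterol synthesis were higher at day 7. These genes are switched on by SREBP2, the product of Srebf2, when cells sense little sterol. Of 23 tested members 13 rose and 0 fell, with a median of 0.57, and leaving out 1 library gave 11 to 14 calls. Their summed level was 901 to 1084 CPM at day 7, against 617 to 700.3 CPM at day 2, without overlap. Srebf2 itself had 133, 216 and 304 CPM at day 7, against 82.9, 118 and 164 CPM at day 2, and changed by 0.94 ± 0.19 (adjusted p = 0.00875).

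Along the pathway, Idi1 (1.21) and Fdps (0.71) make and join the isoprene units, Fdft1 (0.55) and Sqle (0.78) make and oxidise squalene, and Msmo1 (0.88), Nsdhl (0.58), Hsd17b7 (0.79), Sc5d (0.53) and Dhcr7 (1.03) finish the sterol. All of these log2 changes passed the test, as did that of Insig1 (0.75), the sterol sensor. Dhcr7, with 24.7, 35.2 and 42.3 CPM at day 7, against 13.4, 16.3 and 19.9 CPM at day 2, was called in all 12 fits with 1 library left out (log2 change 1.03 ± 0.15, adjusted p = 0.00142). The list gave 14 calls higher and 0 lower against letter k, and 7 higher and 0 lower against letter n, with the same day 7 libraries in both; over all genes 4.22% and 5.04% were called higher in these fits.

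In fatty acid synthesis, of 28 tested members 3 rose and 1 fell, with a median of 0.22. Thrsp, a regulator of lipogenesis, changed by 1.42 ± 0.26 (adjusted p = 0.00599), Dgat2, which makes triglyceride, by 0.78 ± 0.18 (adjusted p = 0.0179) and Acsl4, a fatty acid ligase, by 0.74 ± 0.18 (adjusted p = 0.0221), while Pcyt1a, the rate-limiting enzyme of phosphatidylcholine synthesis, changed by -0.74 ± 0.20 (adjusted p = 0.0359) and was called in 4 of the 12 fits with 1 library left out. Srebf1, the lipogenic relative of Srebf2, did not pass (0.18 ± 0.22, adjusted p = 0.630). Of 25 genes of fatty acid oxidation 4 fell and 1 rose, with a median of -0.10. Cpt1a, which admits fatty acids to mitochondria, had 82.6, 94.0 and 111 CPM at day 7, against 121, 137 and 154 CPM at day 2, and changed by -0.53 ± 0.12 (adjusted p = 0.0128). Acadvl, the first enzyme on long chains, changed by -0.91 ± 0.18 (adjusted p = 0.00808), and Acaa2 also fell. The 1 that rose, Fabp4, is also a fat cell gene.

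Several genes of fat cells were higher at day 7. Of 11 tested members 6 rose and 0 fell, with a median of 1.07 and 4 to 6 calls when 1 library was left out, and 4 of the 15 listed genes did not pass the filter on low counts. The fat cell list gave 6 higher and 0 lower against letter k (median 1.03), and 1 higher and 0 lower against letter n (median 1.00). These fits called 4.22% and 5.04% of all genes higher. Cfd, which encodes adipsin, had 2.56, 6.26 and 21.7 CPM at day 7, against 1.07, 1.75 and 2.70 CPM at day 2, and changed by 2.29 ± 0.41 (adjusted p = 0.00545). Fabp4, a fatty acid carrier also made by capillary endothelium, had 11.4, 20.8 and 33 CPM at day 7, against 8.60, 9.51 and 13.9 CPM at day 2, and changed by 1.07 ± 0.22 (adjusted p = 0.00947). Pck1, of glycerol and glucose formation, changed by 1.6 ± 0.36 (adjusted p = 0.0161), and Adipoq, Plin1 and Retn by 1.58, 1.28 and 1.75. The summed level of the list was 97.2 to 183 CPM at day 7, against 72.2 to 127 CPM at day 2. Lists of other tissues that can adjoin a dissected lung gave 3 calls of 14 for cardiac muscle, 1 of 6 for skeletal muscle, 1 of 8 for thymocytes and 1 of 4 for squamous epithelium. The cardiac calls were Nppa (1.79 ± 0.50, adjusted p = 0.0365), Myl4 (0.83 ± 0.20, adjusted p = 0.0212) and Ttn (0.66 ± 0.17, adjusted p = 0.0265), called in 4, 10 and 8 of the 12 fits with 1 library left out. The part of adjoining tissue in these values was not tested.

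Several genes of alveolar myofibroblasts and of matrix assembly were lower at day 7, and at day 2 most of those named here lay higher in the letter k than in the letter n libraries. Of 17 tested myofibroblast genes 6 fell and 1 rose, with a median of -0.55 and 4 to 8 calls when 1 library was left out. The list median was -0.64 against letter k and -0.37 against letter n, with 8 and 2 members called lower, beside 6.21% and 7.04% of all genes tested in these fits, which share the day 7 libraries. Tgfbi, a secreted protein that binds collagen and integrins, had 33.5, 36.4 and 47.2 CPM at day 7, against 53.9, 158 and 174 CPM at day 2, a log2 change of -1.74 ± 0.27 (adjusted p = 0.00312). At day 2 it lay at 156 to 174 CPM with letter k and at 53.9 and 54.3 CPM with letter n, giving -2.13 (adjusted p = 4.8e-08) against k and -0.51 (adjusted p = 0.0665) against n. Egfem1, an EGF-domain protein, had 3.22, 4.44 and 6.18 CPM at day 7, against 4.80, 16.8 and 22.6 CPM at day 2, with -2.15 (adjusted p = 3.37e-06) against k and -0.51 (adjusted p = 0.228) against n. Cdh4, a cadherin, changed by -1.13 ± 0.21 (adjusted p = 0.00648), Lgr6, a WNT co-receptor, by -0.90 ± 0.21 (adjusted p = 0.0181) and Stc1, a secreted glycoprotein, by -0.59 ± 0.12 (adjusted p = 0.00947). Igf1, the growth factor, was the 1 that rose (0.80 ± 0.22, adjusted p = 0.0339) and was called in 4 of the 12 fits with 1 library left out. Pdgfra, the receptor that marks the lineage, had a log2 difference of -0.36 ± 0.15 (adjusted p = 0.137) and did not pass.

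In matrix assembly the calls were split. Of 26 genes of collagen processing 5 fell and 3 rose (median 0.06): P4ha3, with 4.01, 5.60 and 6.90 CPM at day 7, against 7.33, 18.1 and 20.9 CPM at day 2, the galactosyltransferase gene Colgalt1 (-0.62 ± 0.12, adjusted p = 0.00818), the procollagen protease gene Bmp1 (-0.62 ± 0.14, adjusted p = 0.0162), Loxl2 and Loxl3 fell, while P4ha2 (0.58 ± 0.12, adjusted p = 0.00888), the collagen chaperone gene Serpinh1 (0.66 ± 0.18, adjusted p = 0.0330) and Pcolce2 (0.49 ± 0.13, adjusted p = 0.0284) rose. P4ha3 lay at 16.4 to 20.9 CPM with letter k and at 7.33 and 8.68 CPM with letter n. Serpinh1 was called in 6 and Pcolce2 in 4 of the 12 fits with 1 library left out. For collagen processing 2 rose and 7 fell against letter k (median -0.10), and 6 rose and 0 fell against letter n (median 0.23). Of 20 elastic fibre genes 4 fell and 2 rose (median 0.02). Against letter k, 1 of them rose and 6 fell (median -0.23), and against letter n, 2 rose and 0 fell (median 0.39). Over all genes 4.22% and 6.21% were called higher and lower against k, and 5.04% and 7.04% against n. Ltbp2, which binds fibrillin, had 271, 310.0 and 358 CPM at day 7, against 401, 584 and 717 CPM at day 2, and changed by -0.84 ± 0.15 (adjusted p = 0.00503). Fbn2, the fibrillin of young tissue, changed by -0.88 ± 0.22 (adjusted p = 0.0250) and Ltbp3 by -0.70 ± 0.16 (adjusted p = 0.0183), whereas Efemp1, fibulin 3, changed by 0.71 ± 0.15 (adjusted p = 0.0113). Elastin itself, Eln, had a log2 difference of -0.50 ± 0.30 (adjusted p = 0.307) and did not pass.

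Of 9 fibrillar collagen genes only Col24a1 was called (-2.22 ± 0.26, adjusted p = 0.000329), and Col1a1 (0.15 ± 0.23, adjusted p = 0.714) and Col3a1 (-0.14 ± 0.23, adjusted p = 0.723), the most abundant of them by CPM, were not. The other 29 collagen genes gave 0 calls, with a median of 0.05. Against letter k the fibrillar list had a median of -0.34, with 0 called higher and 3 lower. Against letter n its median was 0.52, with 1 called higher and 1 lower. The other collagen genes had medians of -0.20 against k (1 higher and 4 lower) and 0.18 against n (3 higher and 0 lower). Among 21 basement membrane genes Nid2 (-0.97 ± 0.19, adjusted p = 0.00766) and Lamb2 (-0.83 ± 0.17, adjusted p = 0.00871) fell and 0 rose, with a median of -0.26. Against letter k, 8 basement membrane genes were called lower (median -0.38), and against letter n, 0 were (median -0.09). Over all genes 6.21% and 7.04% were called lower in these fits. Mmp14, the membrane protease that activates MMP2, was the 1 call among 24 proteases and inhibitors, with 46.5, 69.3 and 97.5 CPM at day 7, against 85.4, 151 and 206 CPM at day 2, and a log2 change of -1.03 ± 0.23 (adjusted p = 0.0148); it lay at 136 to 206 CPM with letter k and 85.4 and 88.0 CPM with letter n.

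Developmental signalling genes gave 6 calls lower and 2 higher among 54 tested, with a median of -0.10 and 2 to 10 calls when 1 library was left out. Those that fell were the WNT ligands Wnt11 (-1.0) and Wnt5a (-0.76), the secreted WNT inhibitors Wif1 (-0.71) and Dkk3 (-0.49), Lgr6, and the growth factor Bmp2 (-0.71 ± 0.16, adjusted p = 0.0131). Against letter k the list gave 12 calls lower and 2 higher (median -0.17). Against letter n it gave 0 lower and 3 higher (median 0.10), so none of its members was called lower there. Over all genes 6.21% and 7.04% were called lower in these fits, and 4.22% and 5.04% higher. Wnt11 had 11.5, 16 and 18.7 CPM at day 7, against 10.9, 37.3 and 42.0 CPM at day 2, and a log2 change of -1.0 ± 0.26 (adjusted p = 0.0287). At day 2 it lay at 35.7 to 42.0 CPM with letter k and at 10.9 and 20.2 CPM with letter n; its change was -1.36 (adjusted p = 2.07e-05) against k and 0.04 (adjusted p = 0.933) against n, and it was called in 6 of the 12 fits with 1 library left out (highest adjusted p 0.0698). Fgf2 (0.57 ± 0.13, adjusted p = 0.0188) and the WNT inhibitor gene Sfrp1 (0.56 ± 0.17, adjusted p = 0.0496) were the 2 that rose, Sfrp1 in 2 of the 12 fits.

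Imprinted growth genes, which decline after birth in many organs, gave 3 calls lower and 1 higher among 24 tested, with a median of -0.15. Peg3 had 35.8, 53.6 and 107 CPM at day 7, against 95.7, 105 and 155 CPM at day 2, and changed by -0.93 ± 0.19 (adjusted p = 0.00903), and Zim1, its neighbour in the same imprinted domain, changed by -1.34 ± 0.30 (adjusted p = 0.0143). H19, a maternally expressed RNA, had 8.53, 11.3 and 17.2 CPM at day 7, against 9.66, 25.2 and 44.4 CPM at day 2, and changed by -1.02 ± 0.28 (adjusted p = 0.0319), but lay at 25 to 44.4 CPM with letter k and 9.66 and 14.9 CPM with letter n and was called in 4 of the 12 fits with 1 library left out. The 1 that rose, Dcn, is described with the adventitial fibroblasts. In the IGF axis, 22 genes gave 2 calls higher (Igf1 and the binding protein gene Igfbp6, 0.89 ± 0.23, adjusted p = 0.0250) and 1 lower (Stc1). The IGF list gave 1 higher and 2 lower against letter k (median -0.14), and 5 higher and 0 lower against letter n (median 0.17). These fits called 4.22% and 5.04% of all genes higher, and 6.21% and 7.04% lower.

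Further genes described here had day 2 libraries that did not overlap between the letters. Ltbp2 lay at 564 to 717 CPM with letter k and at 401 and 425 CPM with letter n, and its log2 difference was -1.05 (adjusted p = 3.89e-05) against k and -0.41 (adjusted p = 0.133) against n. Cdh4 lay at 16.9 to 22.3 CPM with k and 9.36 and 10.7 CPM with n, with a difference of -1.43 (adjusted p = 1.28e-05) against k and -0.37 (adjusted p = 0.250) against n. Kcnj8 lay at 10.1 to 12.8 CPM with k and 7.23 and 7.24 CPM with n, and Enpp1 at 11.5 to 14.0 CPM with k and 7.24 and 7.59 CPM with n. The difference was -1.26 against k and -0.62 against n for Kcnj8 and -1.66 against k and -0.87 against n for Enpp1. Phka2 lay lower with k (17.8 to 25.6 CPM) than with n (33.2 and 49.8 CPM), as did Efemp1, at 27.6 to 38.8 CPM with k and 49.5 and 51.4 CPM with n; the difference was -0.89 against k and -1.70 against n for Phka2 and 0.88 against k and 0.36 against n for Efemp1. Among others of this kind, with the log2 difference against k and then against n in parentheses, the test was passed against k and not against n, a fit with 2 libraries of day 2, for Fbn2 (-1.17 and -0.19), Lgr6 (-1.10 and -0.49), Itgb3 (-0.88 and -0.22), Ttn (0.90 and 0.22), Npas2 (-1.37 and -0.26) and Tef (0.72 and 0.24). The same held for Aldh1a1 (0.93 and 0.30), Zim1 (-1.56 and -0.79), Ptpn5 (-1.40 and -0.78), Nfil3 (-1.23 and -0.69), Hs3st1 (0.71 and 0.39), Thrsp (1.57 and 1.09) and Ighm (-0.85 and -0.46). It was passed against n and not against k for Rxrg (-0.68 and -1.05), Mgp (0.39 and 0.94), Serpinh1 (0.41 and 1.21), Mx2 (-0.67 and -1.41), Tapbp (0.44 and 0.91), Mcm2 (0.44 and 0.98), Igfbp6 (0.73 and 1.19) and Eif5a (0.40 and 0.95).

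**Figure D4:**
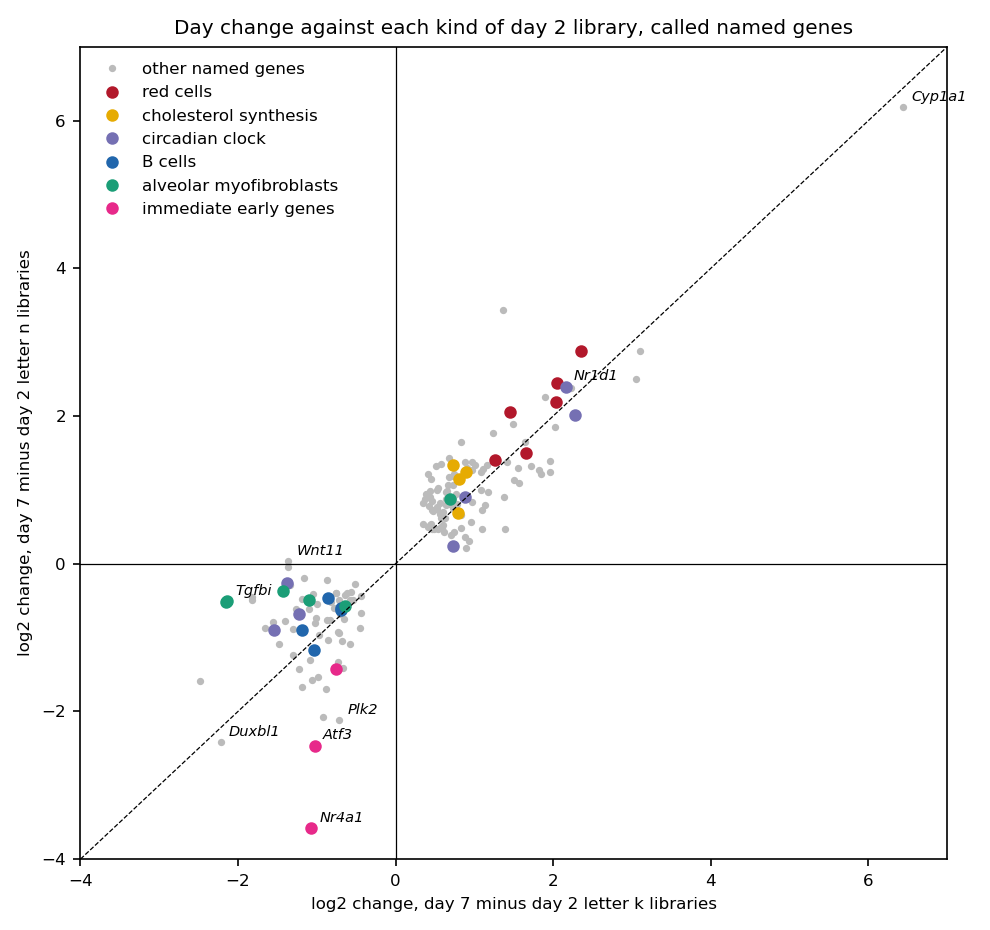
Log2 change of the named genes called over both genotypes, computed against the 2 letter n libraries of day 2 (vertical axis) and against the 4 letter k libraries (horizontal axis); both use the same 6 libraries of day 7. Cyp1a1 and Nr1d1 are high on both axes and Duxbl1 is low on both, Tgfbi and Wnt11 lie lower on the horizontal than on the vertical axis, and Nr4a1 lies lower on the vertical axis.

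Adventitial fibroblasts surround vessels and airways. Of 17 tested genes of these cells 5 rose and 0 fell, with a median of 0.51 and 3 to 6 calls when 1 library was left out. Ly6a, the antigen SCA-1, had 317, 544 and 577 CPM at day 7, against 179.7, 205 and 247 CPM at day 2, and a log2 change of 1.20 ± 0.16 (adjusted p = 0.000809). The small proteoglycans Lum and Dcn, which bind collagen fibrils, changed by 0.96 ± 0.20 (adjusted p = 0.00949) and 0.80 ± 0.14 (adjusted p = 0.00555), and Dcn had 44.4, 59.1 and 65.3 CPM at day 7, against 26, 31.7 and 43.3 CPM at day 2. Adh7 (1.02) and Mfap5 (0.51), which was called in 2 of the 12 fits with 1 library left out, were the other 2.

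Of the remaining mesenchymal and vascular lists, alveolar fibroblasts had Inmt higher (0.65 ± 0.17, adjusted p = 0.0279) and Scube2 lower (-0.70 ± 0.17, adjusted p = 0.0191) among 17 members. Smooth muscle had Ntrk3 lower among 14, and pericytes had the potassium channel gene Kcnj8 lower (-1.05 ± 0.18, adjusted p = 0.00472) and Cox4i2 higher (0.56 ± 0.13, adjusted p = 0.0197) among 15. General capillary endothelium gave 0 calls among 18, with a median of 0.07. In aerocytes, the capillary cells of gas exchange, Cyp4b1 rose (0.54 ± 0.11, adjusted p = 0.0102) and the long RNA Fendrr fell (-0.76 ± 0.19, adjusted p = 0.0248). Arterial endothelium had 3 calls higher among 13, Mgp (0.58 ± 0.16, adjusted p = 0.0359), Edn1 (0.48 ± 0.14, adjusted p = 0.0433) and Hey1 (0.46 ± 0.12, adjusted p = 0.0294), but leaving out 1 library gave 0 to 2 calls. Of 12 mesothelial genes 2 rose, Upk3b (0.90 ± 0.23, adjusted p = 0.0245) and Gpm6a (0.88 ± 0.22, adjusted p = 0.0256), with 0 to 3 calls when 1 library was left out.

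Genes of the retinoid pathway, whose product drives alveolar septation, gave 4 calls higher and 1 lower among 16 tested, with a median of 0.18 and 2 to 6 calls when 1 library was left out. Lrat, which stores retinol as esters, had 7.27, 14.5 and 17.3 CPM at day 7, against 3.22, 4.17 and 8.34 CPM at day 2, and changed by 1.61 ± 0.24 (adjusted p = 0.00233). Rbp4, the plasma retinol carrier, had 14.7, 21 and 23.3 CPM at day 7, against 6.82, 9.02 and 11.0 CPM at day 2, and changed by 1.16 ± 0.16 (adjusted p = 0.000946). Cyp26b1, which degrades retinoic acid, changed by 1.51 ± 0.41 (adjusted p = 0.0351), and Aldh1a1, which makes it, has been given with the club cells. The receptor gene Rxrg changed by -0.78 ± 0.22 (adjusted p = 0.0375) and was called in 4 of the 12 fits with 1 library left out. Glucocorticoid target genes gave 3 calls higher and 0 lower among 21, with a median of 0.32 and 1 to 5 calls when 1 library was left out. They gave 2 higher and 0 lower against letter k (median 0.10), and 8 higher and 1 lower against letter n (median 0.71). In these fits 4.22% and 5.04% of all genes were called higher, and 6.21% and 7.04% lower. Fam107a, with 15.3, 28.5 and 49.6 CPM at day 7, against 5.91, 8.83 and 13.1 CPM at day 2, changed by 1.66 ± 0.27 (adjusted p = 0.00338), Fkbp5, a chaperone of the receptor, by 1.15 ± 0.28 (adjusted p = 0.0214) and Zbtb16 by 1.54 ± 0.40 (adjusted p = 0.0303). Zbtb16 was called in 5 and Fkbp5 in 10 of the 12 fits, and Tsc22d3, the most abundant target by CPM, did not pass (0.58 ± 0.18, adjusted p = 0.0541).

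Many B cell genes were lower at day 7. Of 16 tested members 9 fell and 0 rose, against 4.64% and 4.11% of all tested genes, with a median of -0.62 and 7 to 9 calls when 1 library was left out. The summed level was 404 to 519.9 CPM at day 7, against 593 to 849.6 CPM at day 2, without overlap. Pax5, the factor that fixes B cell identity, had 7.86, 11.8 and 15.3 CPM at day 7, against 18.9, 24.7 and 28.7 CPM at day 2. Every library of day 7 lay below every library of day 2, with a log2 change of -1.06 ± 0.17 (adjusted p = 0.00349), -1.03 (adjusted p = 0.00185) against letter k and -1.16 (adjusted p = 0.0104) against letter n. Cxcr5, the receptor that guides B cells to follicles, changed by -1.07 ± 0.17 (adjusted p = 0.00349), and Cd79b, of the antigen receptor complex, by -0.65 ± 0.11 (adjusted p = 0.00468). Ighm, the heavy chain of IgM and the most abundant member by CPM, had 91.0, 122 and 132 CPM at day 7, against 158, 179 and 272 CPM at day 2, and changed by -0.71 ± 0.15 (adjusted p = 0.0102). Blk (-0.65 ± 0.18, adjusted p = 0.0379) was called in 5 of the 12 fits with 1 library left out, and Ms4a1, Cd22 and Fcrla fell by 0.91, 0.82 and 0.49 on the log2 scale. Cd79a, the partner of Cd79b, had a log2 difference of -0.30 ± 0.18 (adjusted p = 0.291) and did not pass. All immunoglobulin genes together took 0.0258% to 0.0318% of counts at day 7, against 0.0389% to 0.0543% at day 2. Igha, of mucosal IgA, changed by 1.04 ± 0.31 (adjusted p = 0.0462) and was called in 0 of the 12 fits.

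Among other lymphocytes, T cells (23 members, median 0.17) and NK cells (14 members, median 0.27) gave 0 calls in either direction. Against letter k, 6 T cell genes were called higher and 0 lower (median 0.29), beside 4.22% and 6.21% of all genes. Against letter n, 0 T cell genes were called (median -0.22). Among 17 genes of group 2 innate lymphoid cells, in which Rora is required and the Cre of the KO line acts, Hs3st1 rose (0.62 ± 0.13, adjusted p = 0.0109) and Rxrg fell. Rora had a log2 difference of 0.29 ± 0.15 (adjusted p = 0.232) and did not pass.

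Myeloid calls went in both directions, and their shares lay near the 8.75% called over all tested genes. The share was 10.5% for alveolar macrophages, 11.1% for interstitial macrophages and monocytes and 6.67% for neutrophils. Of 19 alveolar macrophage genes 2 rose, Chil3, with 127, 193 and 267 CPM at day 7, against 43.4, 50.5 and 84.9 CPM at day 2, and a log2 change of 1.70 ± 0.20 (adjusted p = 0.000271), and the tetraspanin gene Cd9 (0.62 ± 0.12, adjusted p = 0.00802). Mgl2, a lectin of dendritic cells and alternatively activated macrophages, changed by 0.96 ± 0.19 (adjusted p = 0.00910). Of 18 interstitial macrophage and monocyte genes 2 fell: Cx3cr1, the fractalkine receptor, had 2.62, 3.36 and 4.96 CPM at day 7, against 4.02, 7.44 and 17.1 CPM at day 2, and changed by -1.41 ± 0.31 (adjusted p = 0.0131), and Nr4a1, a factor of patrolling monocytes that is also an immediate early gene, is given below. Neutrophils had 1 call among 15, Csf3r (-0.79 ± 0.21, adjusted p = 0.0284), the receptor for G-CSF, called in 7 of the 12 fits with 1 library left out. Among inflammatory genes Il1b fell (-1.45 ± 0.37, adjusted p = 0.0265), called in 6 of 12.

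Interferon-stimulated genes gave 5 calls lower and 2 higher among 39, with a median of -0.19 and 1 to 7 calls when 1 library was left out. Rsad2, which makes an antiviral nucleotide, had 19.7, 24.6 and 45.5 CPM at day 7, against 8.95, 13.7 and 15.7 CPM at day 2, and changed by 1.14 ± 0.19 (adjusted p = 0.00468), and Bst2 by 0.55 ± 0.16 (adjusted p = 0.0471). Mx2 (-0.94 ± 0.24, adjusted p = 0.0254), Stat2 (-0.59 ± 0.17, adjusted p = 0.0448), Oasl2 (-0.48 ± 0.14, adjusted p = 0.0397), Irf9 (-0.42 ± 0.11, adjusted p = 0.0337) and Xaf1 fell, of which Mx2, Stat2, Oasl2 and Irf9 were called in 8, 5, 4 and 6 of the 12 fits. MHC class II gave 0 calls among 11, with a median of 0.29. In MHC class I, B2m (0.64 ± 0.17, adjusted p = 0.0314, 4 of 12 fits) and Tapbp (0.61 ± 0.15, adjusted p = 0.0224, 8 of 12) rose and Cd1d1 (-0.95 ± 0.13, adjusted p = 0.000829) fell. The chemokine gene Cxcl14 had 268, 414 and 606 CPM at day 7, against 128, 169 and 210.1 CPM at day 2, and changed by 1.39 ± 0.19 (adjusted p = 0.00125).

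Heat shock protein genes were higher at day 7 in 6 of 18 tested members and lower in 0, with a median of 0.40 and 3 to 7 calls when 1 library was left out. Hspb8, a small heat shock protein of the autophagy pathway, had 39.6, 64.9 and 85.4 CPM at day 7, against 21.8, 27.9 and 36.2 CPM at day 2, and changed by 1.13 ± 0.17 (adjusted p = 0.00213). Hspe1, the mitochondrial co-chaperonin, changed by 0.86 ± 0.16 (adjusted p = 0.00602) and the inducible Hspa1b by 0.85 ± 0.18 (adjusted p = 0.0109); Hspa1b shares nearly all of its sequence with Hspa1a, so its reads are uncertain. Hspb1 and Hsp90aa1 changed by 0.77 ± 0.20 (adjusted p = 0.0288) and 0.69 ± 0.19 (adjusted p = 0.0325). Hsp90ab1, the most abundant member by CPM, changed by 0.43 ± 0.12 (adjusted p = 0.0347) and was called in 3 of the 12 fits with 1 library left out. Levels of Hspa1b and Hsp90ab1 also differed by library letter within day 5, as given below.

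The promoter of Hspb1 is shown as an example of the element bound by heat shock factors (RefSeq window, GRCm38.p6, chr5:135887669-135887968, plus strand). Capitals mark GAANNTTC, where N is any base.
Hspb1: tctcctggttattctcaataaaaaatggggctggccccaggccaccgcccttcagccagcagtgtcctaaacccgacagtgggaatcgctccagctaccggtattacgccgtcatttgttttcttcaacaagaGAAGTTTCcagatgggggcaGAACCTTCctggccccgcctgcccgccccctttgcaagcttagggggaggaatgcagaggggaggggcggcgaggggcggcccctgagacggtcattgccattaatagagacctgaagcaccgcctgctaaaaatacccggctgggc
The motif occurs in 2 places in this window, in 7.86% of all windows and in 10 of the 14 heat shock members with a window. A member counted if any of its windows matched, unlike the share over single windows. It reads the same on both strands, and the match is a description of the letters only.

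In the unfolded protein response, 24 tested genes gave 5 calls higher and 1 lower, with a median of 0.30 and 2 to 7 calls when 1 library was left out. Sdf2l1, a factor of the endoplasmic reticulum, had 19.6, 30.03 and 33.2 CPM at day 7, against 6.30, 13.5 and 16.9 CPM at day 2, and changed by 1.08 ± 0.22 (adjusted p = 0.00878). Manf, which is secreted under this stress, changed by 0.71 ± 0.14 (adjusted p = 0.00901) and the co-chaperone gene Dnajb9 by 0.65 ± 0.16 (adjusted p = 0.0204), and Atf5 and Chac1 also rose. Ddit3, the factor CHOP, changed by -0.50 ± 0.14 (adjusted p = 0.0410) and was called in 5 of the 12 fits.

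Immediate early genes, which cells switch on within minutes of a stimulus, gave calls only towards lower levels at day 7, and the highest levels of those named lay in the letter n libraries of day 2. Of 27 tested members 6 fell and 0 rose, with a median of -0.27, and leaving out 1 library gave 1 to 7 calls. The list median was -0.05 against letter k and -0.61 against letter n, with 4 and 12 members called lower, beside 6.21% and 7.04% of all genes. Nr4a1, an orphan nuclear receptor, had 29.3, 39.98 and 55.2 CPM at day 7, against 52.2, 121 and 518 CPM at day 2, with a log2 change of -2.42 ± 0.57 (adjusted p = 0.0233). At day 2 it lay at 52.2 to 129 CPM with letter k and at 454 and 518 CPM with letter n, and it was called in 6 of the 12 fits with 1 library left out (highest adjusted p 0.0748). Atf3, a stress factor, had 3.73, 4.45 and 7.22 CPM at day 7, against 5.57, 14.5 and 27 CPM at day 2, a change of -1.66 ± 0.36 (adjusted p = 0.0131), and lay at 5.57 to 16 CPM with k and 26.9 and 27 CPM with n. Nr4a3 (-0.99 ± 0.22, adjusted p = 0.0157), Nr4a2, Egr3 and Klf4 were the other members called. Fos (-0.89 ± 0.45, adjusted p = 0.218) and Egr1 (-1.38 ± 0.58, adjusted p = 0.152) did not pass. Plk2, the stress-induced kinase gene, lay at 57.5 to 117 CPM at day 7, against 121 to 159.6 CPM with k and 334 and 390.3 CPM with n at day 2.

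Genes of the respiratory chain leaned higher at day 7, with a wide range between fits. Of 50 nuclear genes 11 rose and 1 fell, with a median of 0.31, but leaving out 1 library gave 2 to 15 calls. Ndufa1, a subunit of complex I, had 46.4, 54.0 and 68.0 CPM at day 7, against 18.4, 31.7 and 39.6 CPM at day 2, and changed by 0.84 ± 0.16 (adjusted p = 0.00750), and Cox6c, of complex IV, changed by 0.81 ± 0.16 (adjusted p = 0.00839), while Uqcrc2, of complex III, changed by -0.68 ± 0.16 (adjusted p = 0.0207). Of 15 transcripts of the mitochondrial genome 5 rose and 0 fell, with a median of 0.47; mt-Nd3 changed by 1.05 ± 0.22 (adjusted p = 0.0106) and mt-Rnr1 by 0.84 ± 0.18 (adjusted p = 0.0107). Of 48 cytosolic ribosomal protein genes 5 fell and 0 rose, although their median was 0.21: Rps6 changed by -0.78 ± 0.14 (adjusted p = 0.00479) and Rpl4 by -0.91 ± 0.17 (adjusted p = 0.00611). The ribosomal protein list gave 0 higher and 9 lower against letter k (median -0.00016), and 7 higher and 3 lower against n (median 0.46). These fits called 4.22% and 5.04% of all genes higher, and 6.21% and 7.04% lower.

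Transcript length moved with the day difference. The median transcript length was 2173 bases for genes called higher and 3695 for genes called lower, against 2992 over all tested genes, and across 15818 genes, which are not independent replicates, the correlation of log2 change with log2 length was -0.22. Single libraries also differed: GC content and length took 40.6% of the spread around gene means in day 2 KO 1 and 1.53% in day 2 control 3. In day 7 KO 2 and control 3 the share was 38.5% and 29.3%. How far this shaped the principal components was not tested. With offsets for GC content and length, the mitochondrial transcripts gave 0 calls higher and 0 lower, the ribosomal protein genes 3 higher and 10 lower, and the nuclear respiratory genes 9 higher and 1 lower. Over all genes this fit called 7.62% higher and 7.39% lower. With the same offsets the red cell list gave 14 higher and 0 lower, cholesterol synthesis 16 and 0, and B cells 0 and 12.

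The 30 mitotic genes gave 0 calls, with a median of 0.04. The log2 difference was 0.27 ± 0.20 (adjusted p = 0.418) for Mki67 and 0.24 ± 0.22 (adjusted p = 0.509) for Top2a. Against letter k, 0 mitotic genes were called higher and 1 lower (median -0.17), and against letter n, 5 higher and 0 lower (median 0.50). Over all genes 4.22% and 5.04% were called higher in these fits, and 6.21% and 7.04% lower. Of 29 DNA replication genes 4 rose (13.8%, against 4.11% of all tested genes) and 0 fell (median 0.27), with 0 to 7 calls when 1 library was left out. E2f1 (0.77 ± 0.19, adjusted p = 0.0239), Mcm2 (0.62 ± 0.16, adjusted p = 0.0236) and Pola1 (0.60 ± 0.15, adjusted p = 0.0279) were called in 9, 9 and 5 of the 12 fits, and Cdc6 was the fourth. The cell cycle inhibitors and p53 targets gave 0 calls among 20, with a median of 0.12. In ribosome biogenesis the nucleolar gene Nop56 (-0.75 ± 0.16, adjusted p = 0.0102) and the RNA polymerase I gene Polr1b (-0.66 ± 0.13, adjusted p = 0.00788) fell and were called in all 12 fits with 1 library left out, while Gars1 fell (2 of 12) and Eif5a rose (7 of 12).

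Most other lists gave at most 2 calls each. The share called was 8% for hypoxia and glycolysis, 6.25% for vascular signalling and 4.76% for ion transport. It was 7.14% for the histone list and 8.7% for genes of growth stages. These shares lie below the 8.75% called over all tested genes. Among 25 genes of hypoxia and glycolysis Pfkfb3 (0.57 ± 0.11, adjusted p = 0.00759) and Aldoa (0.52 ± 0.15, adjusted p = 0.0465) rose, and among 32 of vascular signalling Edn1 rose and Plxnd1 fell. Of 21 ion transport genes Car2 fell (-0.55 ± 0.13, adjusted p = 0.0201). Of the 12 fits with 1 library left out, Aldoa was called in 3, Edn1 in 2, Plxnd1 in 5 and Car2 in 8. Of 14 genes in the list of histones and of proteins made with them in growing cells Tuba1b rose (0.61 ± 0.13, adjusted p = 0.0102), and among 23 genes of growth stages Tubb3 rose and Hmgb3 fell, each called in 3 of the 12 fits with 1 library left out. The monocyte-derived dendritic cell gene Cd209a rose (1.10 ± 0.31, adjusted p = 0.0363, 4 of 12 fits), as did the neuronal gene Uchl1 (0.76 ± 0.17, adjusted p = 0.0161), the venous gene Prss23 (0.71 ± 0.16, adjusted p = 0.0164) and, among 9 genes of the lymphatic list, Thy1 (0.66 ± 0.18, adjusted p = 0.0367, 4 of 12 fits). Basal cells, Schwann cells, eosinophils, and mast cells and basophils gave 0 calls among 6, 11, 7 and 9 tested genes, with medians of 0.49, 0.06, -0.01 and -0.63.

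The genotype question was asked of single genes as well. The 5 genes with the smallest p in the interaction of genotype and day, none of them called, included Ccl17, a chemokine for T helper 2 cells, whose log2 difference between the days was -0.15 in KO lungs and 2.40 in control lungs. The difference was -0.20 in KO and -1.39 in control lungs for Csf3r, and in the same order Arid5a, which stabilises cytokine transcripts, had -0.39 and -1.81, Dusp8 0.47 and -0.64, and Ssxb16 1.32 and -1.48. For genes that led their lists the same values can be set side by side. Cyp1a1 had a difference of 6.17 in KO and 6.45 in control lungs, Hbb-bs of 1.99 and 2.42, Nr1d1 of 2.22 and 2.31, and Bmal1 of -1.16 and -1.50. Dhcr7 had 1.02 and 1.04, Pax5 -0.92 and -1.19, and Tgfbi -1.65 and -1.82. The red cell list had a median of 1.16 in KO and 1.74 in control lungs, cholesterol synthesis 0.51 and 0.62, B cells -0.59 and -0.68, and myofibroblasts -0.56 and -0.54. Other list medians lay further apart: goblet and mucous cells had -0.27 in KO and 1.37 in control lungs, and mitochondrial transcripts 0.09 and 0.76. Neutrophils had -0.01 and -0.70, mast cells and basophils 0.04 and -0.79, and group 2 innate lymphoid cells -0.12 and 0.41. Whether list medians differed between the genotypes was not tested.

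Untreated lungs labelled day 5, which entered no test here, also carry 2 library letters: controls 2 and 3 and KO 1 and 3 carry f, and control 1 and KO 2 carry o. Several genes that differed between days 7 and 2 differed between these letters within day 5. Cyp1a1 lay at 12.4 and 12.7 CPM in the letter o libraries (KO 2, then control 1) and at 0 to 0.191 CPM in the letter f libraries, beside 0.781 to 19.4 CPM at day 7 and 0 to 0.258 CPM at day 2. Nr1d1 lay at 89.8 and 102 CPM with o and 27.9 to 55.2 CPM with f, and Dbp at 68.9 and 75.1 CPM with o and 9.02 to 15.3 CPM with f. Bmal1 lay at 3.80 and 5.54 CPM with o and 21.4 to 28.8 CPM with f, beside 4.89 to 9.43 CPM at day 7 and 10.6 to 19 CPM at day 2. For these 4 genes the letter o lungs of day 5 lay on the side of the day 7 lungs, and the letter f lungs nearer to those of day 2. Hbb-bs lay at 4305 and 4549 CPM with o and 1711 to 3579 CPM with f, and Dhcr7 at 19.1 and 18.8 CPM with o and 12.1 to 16.4 CPM with f. Pax5 lay at 24.8 and 64.4 CPM with o and 13.5 to 19.5 CPM with f, so the day 5 lungs with letter o were not on the side of day 7 for this gene. Tgfbi lay at 48.6 and 49.6 CPM with o and 43.6 to 52.8 CPM with f, beside 33.5 to 47.2 CPM at day 7 and, at day 2, 156 to 174 CPM with letter k and 53.9 and 54.3 CPM with letter n. Nr4a1 lay at 232 and 339.8 CPM with o and 117 to 186 CPM with f. Of the heat shock genes, Hspa1b lay at 12.2 and 14.0 CPM with o and 62.0 to 119 CPM with f. Hsp90ab1 lay at 730 and 840 CPM with o and 1072 to 1261 CPM with f, whereas Hspb8 and Hspe1 overlapped between these letters. The labels give no reason for the letters, and what sets these libraries apart was not tested.

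**Figure D5:**
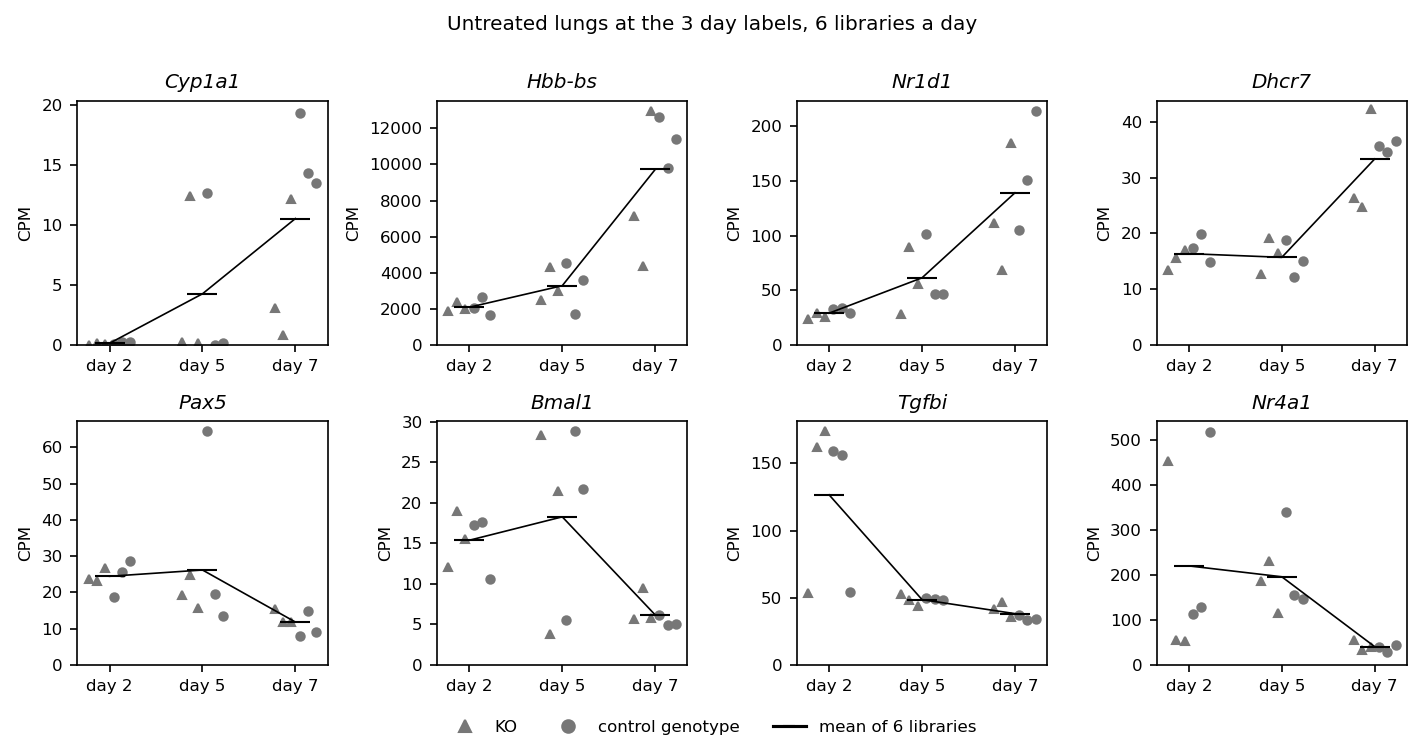
CPM of 8 genes in untreated lungs at day labels 2, 5 and 7, each point 1 library (triangles KO, circles control) and the line through the means, 6 libraries per day. Cyp1a1 and Nr1d1 are high and Bmal1 is low in 2 of the 6 libraries of day 5 and in all 6 of day 7; the mean of Hbb-bs is highest and that of Pax5 lowest at day 7.

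The same pair of day labels can be set side by side in the lungs that received naphthalene, 5 libraries of day 7 and 6 of day 2, which share no library with the untreated ones. That comparison called 4409 of 20606 tested genes (21.4%). It also spans the course of an injury, and its libraries carry letter p at day 7, as in untreated lungs, and letter a at day 2. Of the 1636 genes called in untreated lungs, 1506 (92.1%) had the same sign there, against 73.7% of all genes tested in both, 944 (57.7%) were called with the same sign and 17 were called with the opposite sign. After naphthalene Nr1d1 rose by 1.18 (adjusted p = 0.00198), while the log2 difference of 1.14 (adjusted p = 0.121) for Dbp and of -0.71 (adjusted p = 0.222) for Bmal1 did not pass. Hbb-bs changed by 2.69 (adjusted p = 3.08e-08), Cyp1a1 by 8.01 (adjusted p = 8.4e-05) and Dhcr7 by 1.31 (adjusted p = 8.34e-06). Scgb1a1, of the club cells that naphthalene injures, changed by 3.00 (adjusted p = 2.91e-11) and Tgfbi by -1.18 (adjusted p = 0.000485), and Pax5 had a difference of -0.85 (adjusted p = 0.128). The red cell list had 16 members called higher and 0 lower after naphthalene (background 11.7% and 9.73%), cholesterol synthesis 14 and 0, and B cells 0 and 5. The alveolar myofibroblast list had 4 members called higher and 3 lower after naphthalene, with a median of -0.10, beside 1 and 6 in untreated lungs. Interferon-stimulated genes had 20 called higher and 0 lower after naphthalene, with a median of 0.64, beside 2 and 5 in untreated lungs.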

How the data were processed

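Whole-lung RNA of 12 untreated mouse lungs was compared, from a table of 57186 genes and 35 libraries. The values are raw counts per gene as deposited by the authors, whole numbers whose totals differ between libraries; the submitters' processing notes name GRCm39 and DESeq2, and no source used here gives the aligner or annotation. Counts were analysed with edgeR 4.0.16 and limma 3.58.1 in R 4.3.3: filterByExpr on the 4 groups kept 18691 of the 36159 genes with a read (at least 99.792% of each library's counts), TMM factors were applied, and glmQLFit (robust) with glmQLFTest tested day 7 minus day 2 with genotype as a covariate, two-sided, with Benjamini-Hochberg adjustment and a threshold of 0.05. Fits of 4 group means gave the change within each genotype and the interaction. The common biological coefficient of variation was 0.232, with 9 residual degrees of freedom. Scripts were tested on simulated data. DESeq2 1.42.0, other scalings and filters, GC content and length offsets, an Xist covariate and each library left out were tried as alternatives, the offsets and the covariate having been chosen after seeing the data.

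The gene lists (79 lists with 1491 distinct symbols, of which 1482 were in the table and 1340 were tested), the comparison and the tests were chosen with earlier results of these data known. Named are the 15 genes that rose most and the 15 that fell most, among those called that averaged 5 CPM or more on either day without overlap between the days, leaving out gene models, pseudogenes and receptor segments; in each list the called members with the smallest p (up to 3 in each direction) and the 2 with the highest mean CPM; the 5 genes with the smallest interaction p; and Rora and Il7r. Other list members named were chosen after their values were seen. Lists were not tested as sets and are described by counts and medians beside those of all genes. Promoter windows are RefSeq's on GRCm38.p6, another build than that of the counts, so they were matched by symbol. Some genes that the rule names are not reported here.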

Additional observations from a re-analysis of the deposited data

Results flagged for a closer look

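Among 68 groups of 6 libraries that were examined, 5 held 1 library far from the other 5, and chance alone gives about 1 in 20. The groups were the 15 largest increases, the 15 largest decreases and library measures, at day 7 or at day 2. Other named genes were not examined in this way. At day 7 the ribosomal transcript Rn18s-rs5 took 8.12% of counts in KO 1, and the next library had 3.43%. Bmal1 lay at 9.43 CPM in KO 2 at day 7, with the next library at 6.16 CPM; KO 2 also had the lowest haemoglobin share of the 6. Crocc2 lay at 7.11 CPM in KO 1 at day 7, with the next library at 4.63 CPM. At day 2 Cyp2b10 lay at 37.8 CPM in KO 1, a letter n library, with the next at 25.7 CPM. Slc4a1 lay at 32.3 CPM in control 2 at day 2, a letter k library, with the next at 19.6 CPM. Bmal1, Crocc2, Cyp2b10 and Slc4a1 were called with any 1 library left out. Groups of 3 libraries (1 genotype at 1 day) were too small for this check.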

How the results depend on the processing

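The number of genes called between the days (1636) was 1654 with DESeq2's size factors in edgeR, 1674 with upper quartile factors, 1597 with a filter of at least 1 CPM in at least 6 libraries and 1619 with ribosomal, haemoglobin and mitochondrial transcripts left out of the scaling. It was 2693 with DESeq2, 2472 without a filter, 2835 with all 35 libraries in the fit, 2806 with GC content and length offsets and 3082 with Xist as a covariate. It was 1978 with the letter k libraries of day 2 alone and 2395 with the letter n libraries alone. Leaving out 1 library gave 559 to 1921 calls. No scaling moved the share called higher by more than 10 percentage points.

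In control lungs (315 calls) DESeq2 gave 1333, no filter 1235, all 35 libraries 1502, GC content and length offsets 951, Xist as a covariate 1663 and leaving out 1 library 16 to 732. In KO lungs (3 calls) the same settings gave 109, 211, 41, 27 and 23, and leaving out 1 library 0 to 17. The interaction (0 calls) gave 23 without a filter, 0 to 0 with 1 library left out and 0 in every other setting run. The cause of these moves was not tested.

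Replicate numbers are shared between the groups, but same-numbered libraries did not deviate together: over 18 pairs the correlations ran from -0.73 to 0.78 and 5 exceeded 0.1, so the numbers were not read as pairs. With the replicate block the day comparison gave 1180 calls, control lungs 110, KO lungs 0 and the interaction 0.

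Of 183 named and called genes, DESeq2 left all 183 past the threshold in the same direction, the replicate block 156, all 35 libraries 172, GC content and length offsets 171, letter k alone 154 and letter n alone 99. Wnt11 was the 1 gene among them that changed sign, to a log2 value of 0.038 against letter n. Counting error is small beside the spread between libraries: 1 read was worth at most 0.0850 CPM, and genes of a few CPM are limited by depth.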
